A study of Homo sapiens with 36 samples.

Results

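H9 cells carrying a short hairpin RNA against GATA3 (shGATA3, 3 libraries) were compared with H9 cells carrying a scrambled hairpin (2 libraries) across all expressed genes. The libraries were chosen by their labels, and they are 5 of the 36 libraries of a study that targeted GATA3 in 7 human T cell neoplasm lines. H9 is a clonal derivative of HUT 78, a line established from a patient with Sézary syndrome, and the labels call its cells cutaneous T lymphocytes. The labels give the genotype as GATA-3 knock down in the knockdown libraries and as WT in the controls, which carry the scrambled hairpin. They do not say whether replicates came from separate cultures or whether all knockdown libraries carry the same hairpin. The p-values rest on the spread between replicate libraries, estimated over all 36 libraries of the study. That spread could be technical alone. Polyadenylated RNA was sequenced and the deposited values are expected counts per gene. Of 60628 deposited genes, 21138 passed the filter on low counts and were tested.

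GATA3 is a zinc finger transcription factor that binds DNA words containing GATA. It is required for commitment of thymic progenitors to the T lineage, and in mature CD4+ T cells it directs T helper type 2 (Th2) differentiation and the Th2 cytokine genes. Sézary syndrome is a leukaemic cutaneous T cell lymphoma whose cells are commonly described as Th2-like and as resembling central memory T cells.

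The 3 knockdown libraries held 23.56, 28.13 and 23.73 M counts and the 2 control libraries 26.48 and 26.83 M. Knockdown 2 stood apart from the other libraries. Its counts differed from those of knockdown 1 by 27.88 and from those of knockdown 3 by 37.23 (chi-square per gene), whereas knockdown 1 and knockdown 3 differed by 5.641 and the 2 controls by 5.535. Among genes of at least 10 CPM (counts per M of a library total scaled by the trimmed mean of M-values, TMM), genes were split into 4 classes of transcript length. In knockdown 2 the shortest class lay at a median of 0.16 from the mean of the 5 libraries on the log2 scale, and the longest class at -0.14. In the other 4 libraries these medians lay between -0.07 and 0.07, as the plot of level by transcript length shows. Mitochondrial genes took 0.824%, 1.40% and 0.568% of the counts in the knockdown libraries and 0.808% and 0.827% in the controls. The part of these differences in the results was not tested, and the count of calls without knockdown 2 is given beside the main one.

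**Figure D1:**
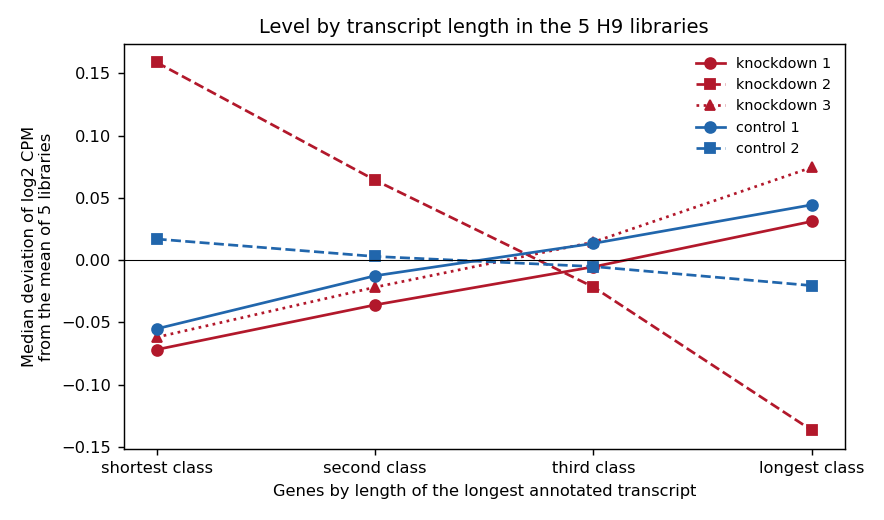
Median deviation of log2 CPM from the mean of the 5 H9 libraries (vertical axis) in genes of at least 10 CPM, split into 4 classes by the length of the longest annotated transcript (horizontal axis), with 1 line per library. Knockdown 2 is at 0.16 in the shortest class and -0.14 in the longest, while the other 4 libraries stay between -0.07 and 0.07.

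The T cell identity of the libraries matched the label. The summed level of 20 T cell markers was 3139 to 3312 CPM in the knockdown libraries and 3171 to 3242 CPM in the controls, and CD3E, a T cell receptor complex subunit, was at 211, 237 and 219 CPM in knockdown and 221 and 214 CPM in control. CD2 was under 1 CPM in every library, CD7 was at 2.53, 2.34 and 1.96 CPM in knockdown and 1.37 and 1.94 CPM in control, and CD4 was at 9.89, 7.98 and 8.96 CPM in knockdown and 12.8 and 10.1 CPM in control. Markers of other cell types ranged from near 0 to well above 100 CPM in sum. The 12 myeloid markers summed to 0.402 to 0.579 CPM in knockdown and 0.730 to 0.778 CPM in control, and 6 of the 12, among them SPI1 and LYZ, had no count in any library. The 10 natural killer cell markers summed to 69.7 to 91.2 CPM in knockdown and 69.1 to 76.9 CPM in control, nearly all of it from NKG7 and NCR3. The 10 erythroid and megakaryocyte markers summed to 0.458 to 0.952 CPM in knockdown and 0.474 to 0.556 CPM in control. Of 10 B cell markers, CD79A and CD79B alone exceeded 1 CPM, CD79A at 225, 231 and 227 CPM in knockdown and 197 and 174 CPM in control (adjusted p = 0.0918), and the list summed to 242.4 to 248.9 CPM in knockdown and 190 to 213 CPM in control. Of 14 stromal and epithelial markers, 6 had no count, and the sum, mostly EPCAM, was 91.8 to 103 CPM in knockdown and 81.2 to 85.1 CPM in control.

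GATA3 (ENSG00000107485, GRCh38 chromosome 10, 8045378 to 8075203, plus strand) was at 61.0, 63.7 and 61.9 CPM in the knockdown libraries, against 151 and 145 CPM in the controls. Every knockdown library lay below both controls. The mean was 62.2 ± 1.35 CPM (SD, n = 3) in knockdown and 148 ± 4.49 CPM (SD, n = 2) in control, a 2.38-fold fall (log2 fold change -1.25, SE 0.0899, adjusted p = 3.75e-10, edgeR quasi-likelihood F test with Benjamini-Hochberg adjustment). The transcript was lowered and not abolished. Other GATA factors and partners of GATA3 were not called: GATA2 was at 1.49, 1.35 and 1.08 CPM in knockdown and 1.04 and 1.17 CPM in control. RUNX1, a core-binding factor, was at 41.6, 33.0 and 43.8 CPM in knockdown and 33.7 and 33.0 CPM in control. RUNX3 was at 216, 233 and 214 CPM in knockdown and 221 and 216 CPM in control. ZFPM1 (FOG1), a GATA cofactor, was at 17.7, 19.98 and 20.3 CPM in knockdown and 19.3 and 16.9 CPM in control. Of 23 tested genes in a list of GATA3 relatives and cofactors, GATA3 alone was called, and GATA1, GATA4 and LMO1 had no count in any H9 library.

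Across the transcriptome 384 of 21138 genes (1.82%) passed an adjusted p of 0.05, 180 higher (0.852%) and 204 lower (0.965%) in knockdown. Changes were mostly modest: the median fold was 1.49 among genes called higher and 1.54 among genes called lower. At least 2-fold differences were seen for 37 genes called higher and 50 called lower, and at least 4-fold for 10 higher and 8 lower. In all 384 the knockdown and control libraries did not overlap, which was also the case for 27.8% of all tested genes. Calls were rarer among low genes, at 0.310% of genes under 1 CPM, 2.58% at 1 to 10 CPM, 2.61% at 10 to 100 CPM and 2.79% above 100 CPM. The shares over all tested genes, set beside gene lists below, include the 7417 genes under 1 CPM. They were not matched to the levels of a list's members. The count rested on the 2 controls: it was 108 without control 1 and 162 without control 2. It was 281 without knockdown 2, of which 243 were among the 384 and 39.9% were higher, against 46.9% of the 384; scaling by DESeq2 size factors gave 41.9% higher and the filter of 10 counts in 2 libraries 42.9%.

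**Figure D2:**
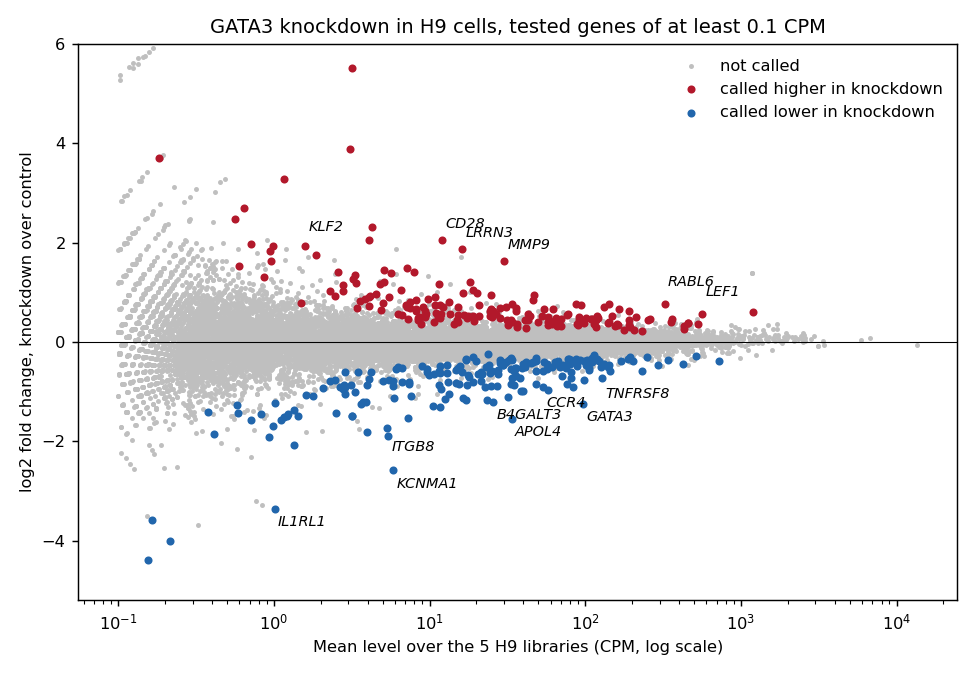
Log2 fold change of knockdown over control (vertical axis) against the mean level over the 5 H9 libraries (horizontal axis, CPM, log scale) for tested genes of at least 0.1 CPM, with genes called higher in red and lower in blue. CD28 and LRRN3 stand out above 0 and KCNMA1 below it among genes well above 1 CPM, and most called genes lie within 1 of 0.

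Th2 genes were the list closest to the known role of GATA3, and 4 of its 25 tested members were called, all lower (16.0%, against 0.965% of tested genes), with a median log2 fold change of -0.09 over the 25, against 0 over all tested genes. This list and the others below were chosen with earlier results of these data known. A share above that of all tested genes is thus not independent support. These are bulk samples, in which fewer cells of a type and less RNA per cell cannot be told apart. IL1RL1, the receptor for interleukin 33 (ST2) that marks Th2 cells, was at 0.207, 0.256 and 0.167 CPM in knockdown, against 2.56 and 1.86 CPM in control. Both controls lay far above all knockdown libraries, a 10.3-fold fall on a low base (log2 fold change -3.36, SE 0.422, adjusted p = 0.00137). CCR4, the skin-homing chemokine receptor that is a therapeutic antibody target in Sézary syndrome (ENSG00000183813, GRCh38 chromosome 3, 32951574 to 32956349, plus strand), was at 39.2, 38.1 and 42.1 CPM in knockdown and 73.5 and 75.1 CPM in control, a 1.87-fold fall (adjusted p = 6.74e-05). CCR8, another chemokine receptor of skin-homing and Th2 cells, fell to 13.5, 11.7 and 14.1 CPM in knockdown, against 24.5 and 23.3 CPM in control (adjusted p = 0.0362). DUSP4, a phosphatase of MAP kinases, was at 23.2, 20.2 and 24.0 CPM in knockdown and 37.7 and 32.5 CPM in control (log2 fold change -0.64, adjusted p = 7.35e-05).

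The Th2 cytokines themselves gave little to measure in H9. IL13 and MAF, a Th2 transcription factor, had no count in any library, and IL4 was at 0.497, 0.439 and 0.250 CPM in knockdown and 0.556 and 0.365 CPM in control. IL4R, the interleukin 4 receptor, was at 82.2, 81.3 and 83.6 CPM in knockdown and 86.3 and 82.3 CPM in control (adjusted p = 1). STAT6, its signal transducer, was at 140, 134 and 138 CPM in knockdown and 131 and 129 CPM in control (adjusted p = 0.874). IL1RL1, CCR4 and DUSP4 were called whichever H9 library was left out, and the call of CCR8 was lost in each of the 5 such fits, at adjusted p up to 0.373 without control 1. IL1RL1 shares exon sequence on its own strand with IL18R1 in GENCODE 29, so its reads can be split between them.

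Receptors and ligands of the tumour necrosis factor superfamily included 3 genes called lower and 1 higher of 29 tested (10.3% and 3.45%, against 0.965% lower and 0.852% higher of all tested genes), with a median log2 fold change of -0.14. TNFRSF9 (4-1BB), an activation-induced costimulatory receptor, was at 28.7, 26.2 and 30.9 CPM in knockdown and 57.2 and 55.7 CPM in control (log2 fold change -0.98, SE 0.121, adjusted p = 3.12e-05). TNFRSF8 (CD30), an antibody-drug target in T cell lymphomas, was at 103, 93.3 and 106 CPM in knockdown, against 173 and 161 CPM in control (adjusted p = 0.000109). TNFSF4 (OX40 ligand) was at 2.19, 2.38 and 2.46 CPM in knockdown and 6.26 and 4.93 CPM in control (adjusted p = 0.00239). TNFRSF1B (TNF receptor 2) was higher, at 102, 105 and 101 CPM in knockdown, against 73.0 and 72.0 CPM in control (adjusted p = 0.0457). TNFRSF9 and TNFRSF8 were called whichever H9 library was left out; TNFSF4 was not called without control 1 (adjusted p = 0.123), and TNFRSF1B in none of the 5 fits, at adjusted p up to 0.382 without control 1.

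Cytokine receptors and the JAK-STAT pathway counted 4 members lower and 1 higher of 42 tested (9.52% and 2.38%, against 0.965% and 0.852% of all tested genes), and 29 of the 42 had a log2 fold change below 0 (median -0.11). IL10RA, the ligand-binding chain of the interleukin 10 receptor, was at 14.6, 14.5 and 13.8 CPM in knockdown and 23.7 and 22.7 CPM in control (log2 fold change -0.70, adjusted p = 6.49e-05). IL9R, the receptor for the growth factor interleukin 9, was at 5.67, 5.09 and 4.67 CPM in knockdown and 8.67 and 9.38 CPM in control (adjusted p = 0.00144). IL6R, the interleukin 6 receptor, was at 0.869, 0.622 and 0.625 CPM in knockdown, against 2.00 and 1.97 CPM in control (log2 fold change -1.49, adjusted p = 0.00653). The PIM kinases, survival kinases downstream of STAT5, moved in opposite directions. PIM2 was at 152, 165 and 148 CPM in knockdown and 120 and 118 CPM in control (adjusted p = 0.00392). PIM3 was at 174, 182 and 171 CPM in knockdown and 222 and 214 CPM in control (adjusted p = 0.0255). STAT3 (adjusted p = 0.218) and STAT5A (adjusted p = 0.798) were not called. IL10RA and IL9R were called in all 5 leave-one-out fits, IL6R and PIM2 in all but those without control 1 (adjusted p = 0.0955 for IL6R and 0.0966 for PIM2) and without control 2 (0.0619 for IL6R and 0.109 for PIM2), and PIM3 only in that without knockdown 2. By limma-voom IL6R was not called (adjusted p = 0.118).

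Among cytokines and chemokine ligands 3 of 34 tested members were called, all lower (8.82%, against 0.965% of all tested genes). OSM (oncostatin M, a cytokine of the interleukin 6 family) was at 11.5, 12.2 and 10.4 CPM in knockdown and 20.6 and 19.6 CPM in control (log2 fold change -0.82, adjusted p = 0.000646). CCL5 (RANTES), a T cell chemokine, was at 102, 117 and 104 CPM in knockdown and 156 and 150 CPM in control (adjusted p = 0.0156). EBI3, a subunit of interleukins 27 and 35, was at 1.78, 1.43 and 2.13 CPM in knockdown and 3.33 and 2.74 CPM in control (adjusted p = 0.0164). OSM was called in all 5 leave-one-out fits. The call of CCL5 was lost in every such fit but that without knockdown 2 (adjusted p up to 0.241, without control 1), and that of EBI3 without control 1 (adjusted p = 0.350), knockdown 1 (0.0529) and knockdown 2 (0.0814). The Th1 and cytotoxic list held 2 called members of 31, CCL5 and IL18R1, the interleukin 18 receptor, both lower (6.45%, against 0.965%). Without the filter on low counts this list held 4 higher and 1 lower of 34, and IL18R1 was not called (adjusted p = 0.083). With DESeq2 it held 1 higher and 2 lower. IL18R1 was at 2.19, 2.20 and 2.71 CPM in knockdown and 4.11 and 4.53 CPM in control (adjusted p = 0.0142), and was called in 1 of the 5 leave-one-out fits, that without knockdown 3 (up to 0.185 in the others, without control 2). TBX21, the Th1 master regulator, was at 0.621, 0.732 and 0.292 CPM in knockdown and 0.408 and 0.256 CPM in control (adjusted p = 0.761). None of 14 Th17 genes was called in the main fit, and 1 Th17 gene was higher without the filter on low counts. Of 17 regulatory T cell genes, TNFRSF9 and EBI3 were lower (11.8%) and TNFRSF1B higher (5.88%), against 0.965% and 0.852% of all tested genes. FOXP3, which defines that lineage, was at 0.580, 0.476 and 0.708 CPM in knockdown and 0.333 and 0.365 CPM in control (adjusted p = 0.667).

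The list with the largest share of members called higher was that of naive and central memory T cells, where 4 of 20 rose (20%, against 0.852% of tested genes) and none fell; its median log2 fold change was 0.34. CD28, the main costimulatory receptor for T cell activation (ENSG00000178562, GRCh38 chromosome 2, 203706475 to 203738912, plus strand), was at 15.4, 18.6 and 17.96 CPM in knockdown, against 4.45 and 3.94 CPM in control. The lowest knockdown library was well above the higher control, and the rise was 4.13-fold (log2 fold change 2.05, SE 0.160, adjusted p = 1.15e-08). LRRN3, a leucine-rich repeat membrane protein whose transcript marks naive T cells, was at 22.5, 23.7 and 21.96 CPM in knockdown and 6.48 and 5.99 CPM in control (3.64-fold higher, adjusted p = 1.24e-05). LEF1, the Wnt-pathway transcription factor of early T cells, was at 633, 651 and 652 CPM in knockdown and 436 and 434 CPM in control (1.48-fold higher, adjusted p = 0.000198). KLF2, a factor of T cell quiescence and lymph node recirculation, was at 2.19, 2.27 and 2.33 CPM in knockdown and 0.630 and 0.548 CPM in control (3.83-fold higher, adjusted p = 0.00493).

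Other defining members of this list were not called. TCF7 (TCF-1), the partner of LEF1, was at 215, 219 and 208 CPM in knockdown and 172 and 159 CPM in control (adjusted p = 0.159). S1PR1, the receptor for lymph node exit and a known target of KLF2, was at 0.994, 1.24 and 1.29 CPM in knockdown and 0.408 and 0.438 CPM in control (adjusted p = 0.134). CCR7, the lymph node homing receptor, was at 151, 146 and 151 CPM in knockdown and 143 and 145 CPM in control (adjusted p = 1). CD28, LRRN3 and LEF1 were called whichever H9 library was left out, and KLF2 in all but the fits without control 1 (adjusted p = 0.0981) and control 2 (adjusted p = 0.123). By limma-voom KLF2 was not called (adjusted p = 0.0778), which left 3 calls in the list. With DESeq2 the list held 5 higher and 1 lower, with DESeq2 size factors 4 and 1, and without the filter on low counts 7 and 1.

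**Figure D3:**
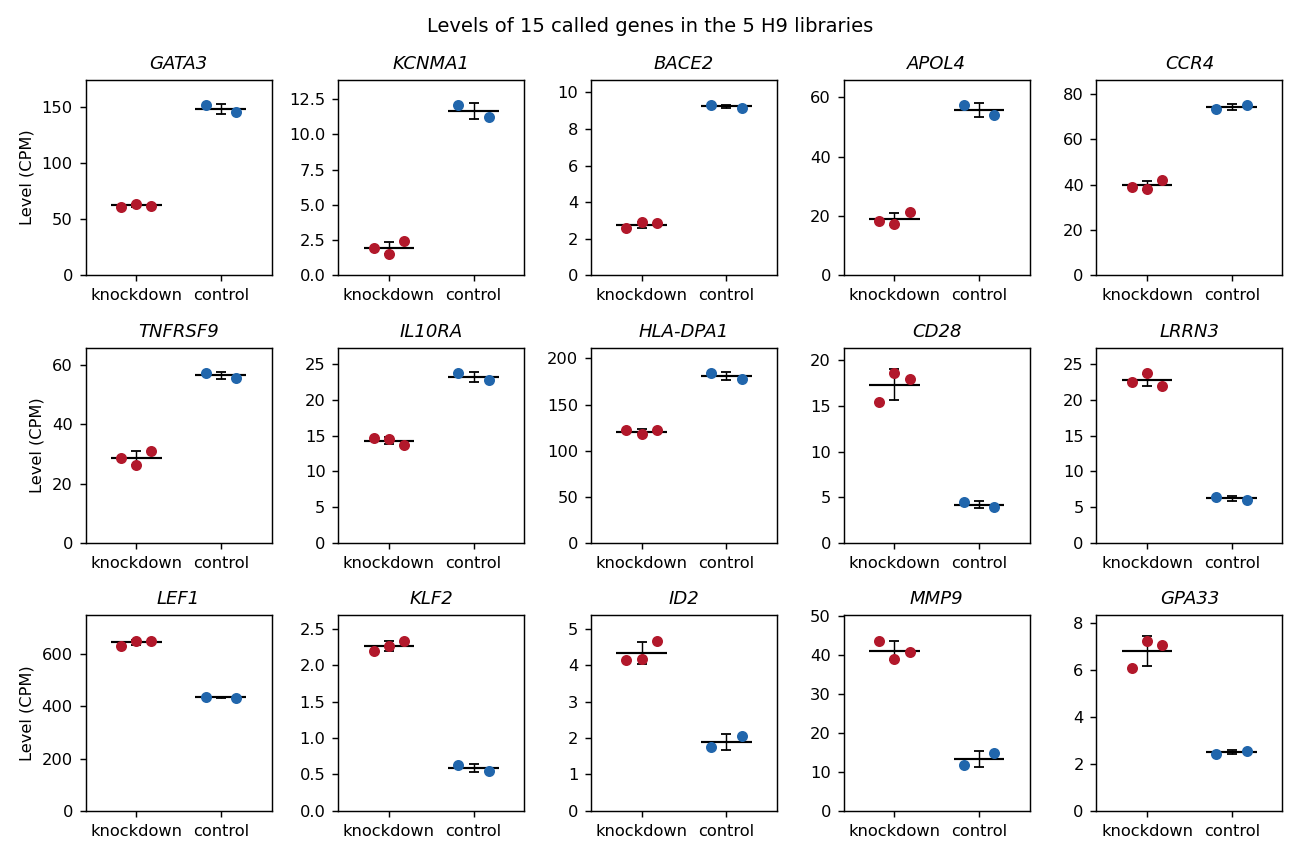
Levels (CPM, vertical axes from 0) of 15 called genes in the 3 knockdown (red, left) and 2 control (blue, right) libraries, with the mean as a bar and 1 SD as error bars. GATA3, KCNMA1, BACE2, APOL4, CCR4, TNFRSF9, IL10RA and HLA-DPA1 were lower in every knockdown library than in both controls, and CD28, LRRN3, LEF1, KLF2, ID2, MMP9 and GPA33 higher.

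Transcription factors of the T lineage included 6 genes called higher and 2 lower of 31 tested (19.4% and 6.45%, against 0.852% higher and 0.965% lower of all tested genes), with a median log2 fold change of 0. ID1 and ID2, inhibitors of the E proteins that drive T cell receptor and early T cell genes, were among those that rose. ID2 was at 4.14, 4.17 and 4.67 CPM in knockdown and 1.74 and 2.04 CPM in control (2.28-fold higher, adjusted p = 3.18e-05). ID1 was at 11.0, 10.8 and 9.79 CPM in knockdown and 3.82 and 4.16 CPM in control (log2 fold change 1.40, adjusted p = 0.00171). TOX2, an HMG-box factor of activated and exhausted T cells, was at 38.2, 44.2 and 38.9 CPM in knockdown, against 22.7 and 24.9 CPM in control (adjusted p = 0.00392). IKZF1 (Ikaros) was at 135, 114 and 130 CPM in knockdown and 102 and 104 CPM in control (log2 fold change 0.30, adjusted p = 0.0427). KLF6, a Krüppel-like factor, was lower at 81.2, 81.6 and 85.7 CPM in knockdown and 103 and 109 CPM in control (adjusted p = 0.0146). ETS2 was at 105, 102 and 107 CPM in knockdown and 130 and 121 CPM in control (adjusted p = 0.0401). BCL11B, a T cell commitment factor, was at 59.3, 45.6 and 60.4 CPM in knockdown and 53.02 and 50.1 CPM in control (adjusted p = 0.882), with overlapping groups, and TOX was not called either (adjusted p = 0.722). ID2 was called in all 5 leave-one-out fits, while ID1 was not called without control 1 (adjusted p = 0.0882) and TOX2 without control 1 (0.185) or control 2 (0.0543). KLF6, ETS2 and IKZF1 lost their calls in 3, 5 and 4 of the 5 fits, with adjusted p of 0.0882, 0.540 and 0.410 without control 1 and 0.217, 0.0645 and 0.278 without control 2. Without knockdown 2 the list held 6 higher and 1 lower, without control 1 it held 2 higher and none lower, and without control 2 it held 3 higher and none lower.

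Components of T cell receptor signalling were called higher for 3 of 42 tested genes (7.14%, against 0.852% of all tested genes) and lower for none. With DESeq2 the list held 3 higher and 1 lower, with DESeq2 size factors 2 and 1, and without the filter 1 higher and none lower. DGKA, a diacylglycerol kinase that dampens signalling, was at 137, 133 and 138 CPM in knockdown and 98.8 and 94.9 CPM in control (log2 fold change 0.49, adjusted p = 0.000267). TRAC, the constant region of the receptor α chain, was at 126, 128 and 124 CPM in knockdown and 101 and 95.1 CPM in control (adjusted p = 0.0271). SH2D2A, an adaptor of activated T cells, was at 11.6, 13.0 and 11.2 CPM in knockdown and 8.93 and 9.09 CPM in control (adjusted p = 0.0491). TRBC1, the β chain constant region, had the opposite sign at 483, 535 and 486 CPM in knockdown and 606 and 611 CPM in control, and was not called (adjusted p = 0.0608). DGKA was called whichever library was left out, TRAC and SH2D2A in none of the 5 such fits, at adjusted p up to 0.433 for TRAC without control 2 and 0.445 for SH2D2A without control 1. Of 27 costimulatory and checkpoint molecules, CD28 was higher (3.70%) and CD80 and CD48 lower (7.41%), against 0.852% and 0.965% of all tested genes. CD80, a ligand of CD28, was at 0.414, 0.402 and 0.292 CPM in knockdown and 1.07 and 0.730 CPM in control (adjusted p = 0.0173), and its call was lost without control 1 (adjusted p = 0.586) and knockdown 3 (0.0806). CD48, an adhesion ligand of lymphocytes, was at 80.0, 96.6 and 83.4 CPM in knockdown and 110 and 118 CPM in control (adjusted p = 0.0269), and was called in 1 of the 5 fits, that without knockdown 2 (up to 0.337 in the others, without control 2).

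Homing receptors moved in both directions, with 2 of 29 called higher and 2 lower. Each was 6.90%, against 0.852% higher and 0.965% lower of all tested genes, and the lower ones were CCR4 and CCR8. CXCR5, the receptor that guides follicular helper T cells to B cell follicles, was at 6.62, 6.18 and 5.71 CPM in knockdown and 1.85 and 3.65 CPM in control (log2 fold change 1.16, adjusted p = 0.00871). The 2 controls differed from each other by about as much as the higher one did from the knockdown libraries, and without control 1 CXCR5 was not called (adjusted p = 0.493). GPR15, a receptor for homing to colon and skin, was at 65.7, 56.9 and 67.4 CPM in knockdown, against 42.2 and 37.7 CPM in control (adjusted p = 0.00328; 0.134 without control 2). Among 35 integrins, selectins and adhesion molecules, ITGB7 and CD81 rose and ITGB8 and ICAM1 fell (5.71% each way, against the same shares of all tested genes). ITGB7, the β chain of the gut-homing integrin, was at 28.2, 28.5 and 30.3 CPM in knockdown and 17.3 and 19.4 CPM in control (adjusted p = 0.00133; 0.108 without control 1). ITGB8, the chain of an integrin that activates latent TGF-β, was at 2.94, 2.12 and 2.75 CPM in knockdown and 9.78 and 9.60 CPM in control (log2 fold change -1.90, SE 0.286, adjusted p = 0.00129), and was called in all 5 leave-one-out fits. CD81, a tetraspanin, was at 202, 235 and 206 CPM in knockdown and 160 and 158 CPM in control (adjusted p = 0.00127; 0.0531 without control 1 and 0.0575 without control 2).

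Matrix proteases and their inhibitors, a list that also held BACE1 and BACE2, had 2 of 32 tested members higher and 2 lower (6.25% each way, against 0.852% and 0.965% of all tested genes). MMP9 (gelatinase B) was at 43.6, 38.9 and 40.9 CPM in knockdown and 11.9 and 14.8 CPM in control (log2 fold change 1.63, SE 0.218, adjusted p = 2.95e-05). TIMP1, an inhibitor of such proteases, was at 17.2, 19.0 and 15.7 CPM in knockdown and 11.7 and 12.2 CPM in control (adjusted p = 0.00603). BACE2, an aspartyl protease, was at 2.57, 2.89 and 2.83 CPM in knockdown, against 9.30 and 9.16 CPM in control (3.33-fold lower, adjusted p = 1.77e-06). MMP9 and BACE2 were called in all 5 leave-one-out fits. TIMP1 was not called without control 1 (adjusted p = 0.178), control 2 (0.0800) or knockdown 2 (0.0690).

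The largest fall among genes of at least 5 CPM was that of KCNMA1, the pore subunit of the large-conductance calcium-activated potassium channel (ENSG00000156113, GRCh38 chromosome 10, 76869601 to 77638369, minus strand). It was at 1.90, 1.54 and 2.42 CPM in knockdown and 12.1 and 11.2 CPM in control, a 5.99-fold fall (log2 fold change -2.58, SE 0.199, adjusted p = 1.30e-09). Of 39 tested ion channel genes, KCNMA1 and P2RX4, an ATP-gated channel, were called, both lower (5.13%, against 0.965% of all tested genes). P2RX4 was at 17.3, 17.3 and 17.7 CPM in knockdown and 22.6 and 20.6 CPM in control (adjusted p = 0.0215). The call of P2RX4 was lost in 3 of the 5 leave-one-out fits. These were the fits without control 1 (log2 fold change -0.25), knockdown 1 (adjusted p = 0.0753) and knockdown 3 (0.05). APOL4, a member of the apolipoprotein L family, was at 18.3, 17.4 and 21.3 CPM in knockdown, against 57.4 and 54.0 CPM in control (2.93-fold lower, adjusted p = 2.08e-06), and was the only 1 of 6 tested family members called. The rest of the 12 lowest fold changes were SHANK1, GPC4, NHSL2, EPB41L3 and FCRL3. EPB41L3, a membrane skeleton protein, was at 7.29, 6.48 and 8.29 CPM in knockdown and 19.2 and 17.0 CPM in control (adjusted p = 0.00335; 0.0882 without control 1). FCRL3, an Fc receptor-like protein reported as a marker of Sézary cells, was at 6.91, 6.04 and 6.92 CPM in knockdown and 15.4 and 17.1 CPM in control (adjusted p = 0.00367; 0.0670 without control 2). SHANK1, GPC4 and NHSL2 had log2 fold changes of -1.82, -1.49 and -1.49, and their calls were lost in 2, 3 and 3 of the 5 leave-one-out fits, at adjusted p of 0.268, 0.189 and 0.473 without control 1. KCNMA1 and APOL4 were called in all of them.

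Of 31 tested genes in a list of cutaneous T cell lymphoma and Sézary markers, CCR4 and FCRL3 were called, both lower (6.45%, against 0.965% of all tested genes). Without the filter on low counts the list held 3 higher and 2 lower of 35. The other known markers of Sézary cells given here were not called in the main fit. PLS3 was at 21.9, 23.9 and 22.001 CPM in knockdown and 22.3 and 21.2 CPM in control, while TWIST1, DNM3 and KIR3DL2 were under 1 CPM in every library. DPP4 (CD26), which circulating Sézary cells often lack, was at 81.3, 76.5 and 86.3 CPM in knockdown and 89.0 and 90.8 CPM in control (adjusted p = 0.847).

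Among genes called higher, the rest of the 12 largest fold changes at 5 CPM or more were spread over functions. GPA33, a cell surface glycoprotein of intestinal epithelium and naive T cells, was at 6.09, 7.24 and 7.08 CPM in knockdown and 2.45 and 2.56 CPM in control (log2 fold change 1.44, adjusted p = 8.11e-07). LGALS9C, a galectin 9 paralogue, was at 8.40, 11.2 and 9.42 CPM in knockdown and 3.30 and 3.58 CPM in control (adjusted p = 0.00244), and how its reads divide from those of its near-identical copies is uncertain. SUCNR1, the succinate receptor, was at 7.00, 7.72 and 7.67 CPM in knockdown and 2.48 and 3.21 CPM in control (adjusted p = 0.0108). KLRC4, a natural killer lectin-like receptor gene that overlaps the read-through gene KLRC4-KLRK1, was at 6.75, 6.04 and 4.92 CPM in knockdown and 1.19 and 1.64 CPM in control (adjusted p = 0.00709). MAB21L4, MYL4 and TEX19 rose with log2 fold changes of 2.31, 1.197 and 1.21. ZACN, a zinc-activated ion channel gene that overlaps EXOC7 on the other strand, had the largest fold change, and its knockdown libraries disagreed, at 5.09, 9.11 and 1.38 CPM, against 0.111 and 0.110 CPM in control (adjusted p = 0.0389). GPA33 and MAB21L4 were called in all 5 leave-one-out fits. Without control 1, LGALS9C (adjusted p = 0.109), SUCNR1 (0.243), KLRC4 (0.172), MYL4 (0.0789) and ZACN (0.398) were not called. Without control 2, LGALS9C (0.0574), SUCNR1 (0.0711), KLRC4 (0.0594), TEX19 (0.0609) and ZACN (0.326) were not called, and ZACN also not without knockdown 1 (0.0706) or knockdown 2 (0.200).

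Antigen presentation by MHC class II, which activated human T cells express, was lower in 4 of 21 tested genes (19.0%, against 0.965% of tested genes) and higher in none, with a median log2 fold change of -0.29. HLA-DPA1 was at 122, 118 and 122 CPM in knockdown and 184 and 178 CPM in control (log2 fold change -0.58, adjusted p = 0.00268). Its partner chain HLA-DPB1 was at 56.7, 61.7 and 57.3 CPM in knockdown and 86.3 and 81.2 CPM in control (adjusted p = 0.0211). HLA-DRB1 was at 66.9, 58.8 and 63.2 CPM in knockdown and 85.1 and 88.2 CPM in control (adjusted p = 0.0291). HLA-DRB5 was at 25.8, 24.1 and 24.8 CPM in knockdown and 33.0 and 34.2 CPM in control (adjusted p = 0.0149). Reads of these polymorphic and closely related HLA genes can be split between copies, so single values are uncertain. The pattern did not pass for the other main members: HLA-DRA was at 228, 250 and 242 CPM in knockdown and 305 and 298 CPM in control (adjusted p = 0.237), the invariant chain CD74 had an adjusted p of 0.430, and CIITA, the class II transactivator, was at 125, 85.3 and 118 CPM in knockdown and 153 and 131 CPM in control (adjusted p = 0.209). These counts depended on the libraries used: no class II gene was called without control 1, 1 without control 2 or without knockdown 3, and 3 without knockdown 1 or without knockdown 2. Class I presentation had 1 call in 22 genes, the chaperone calnexin (CANX), at 482, 435 and 502 CPM in knockdown and 582 and 568 CPM in control (adjusted p = 0.0440), called in 1 of the 5 leave-one-out fits, that without knockdown 3 (up to 0.388 in the others, without control 1).

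The unfolded protein response and protein folding in the endoplasmic reticulum had 6 of 30 tested genes called lower (20%, against 0.965% of tested genes), none higher, and a log2 fold change below 0 in 28 of 30, with a median of -0.18. ERN1 (IRE1α), the stress sensor of the reticulum, was at 40.7, 27.2 and 42.3 CPM in knockdown and 70.8 and 60.8 CPM in control (log2 fold change -0.84, SE 0.132, adjusted p = 0.000278). XBP1, the transcription factor whose transcript IRE1α splices, was at 120, 127 and 121 CPM in knockdown and 166 and 172 CPM in control (adjusted p = 0.00847). The chaperone HYOU1 was at 272, 222 and 272 CPM in knockdown and 370 and 334 CPM in control (adjusted p = 0.000878). DNAJB9 was at 17.0, 17.6 and 18.3 CPM in knockdown and 27.1 and 26.8 CPM in control (adjusted p = 0.0196). DNAJC3, another co-chaperone of BiP, was at 29.3, 24.8 and 27.7 CPM in knockdown and 36.2 and 35.8 CPM in control (adjusted p = 0.0350). CANX was the other call. HSPA5 (BiP), the central chaperone of the reticulum, was at 443, 400 and 460 CPM in knockdown and 571 and 526 CPM in control and did not pass (adjusted p = 0.0746), nor did HSP90B1 (adjusted p = 0.0706). With the H9 libraries fitted alone the list held 2 calls, and neither ERN1 (adjusted p = 0.0724) nor HYOU1 (0.0964) was among them. ERN1 alone of the 6 was called in all 5 leave-one-out fits; without control 1 the adjusted p was 0.0602 for HYOU1, 0.0926 for XBP1, 0.216 for DNAJB9 and 0.284 for DNAJC3. The list held 1 call without control 1, 2 without control 2, 4 without knockdown 1 or knockdown 2 and 6 without knockdown 3; its median log2 fold change lay between -0.24 and -0.15 in these fits. None of 31 genes of the integrated stress response and amino acid supply was called in the main fit, and 1 was lower without the filter on low counts. DDIT3 (CHOP) was at 32.8, 40.1 and 35.5 CPM in knockdown and 44.6 and 47.9 CPM in control (adjusted p = 0.168).

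NF-κB pathway genes and targets counted 5 lower and 1 higher of 32 tested (15.6% and 3.12%, against 0.965% and 0.852% of all tested genes), with a median log2 fold change of -0.12. With the H9 libraries fitted alone no member was called. CFLAR (c-FLIP), an inhibitor of caspase 8, was at 73.0, 69.1 and 75.3 CPM in knockdown and 95.9 and 89.9 CPM in control (adjusted p = 0.00447). IER3, an immediate early gene, was at 2.90, 2.89 and 2.79 CPM in knockdown and 4.67 and 4.09 CPM in control (adjusted p = 0.00623). ICAM1, the LFA-1 ligand, was at 72.7, 63.7 and 70.8 CPM in knockdown and 98.9 and 87.4 CPM in control (adjusted p = 0.0132). NFKBIB, an inhibitor of NF-κB, and EBI3 were the other lower members and SQSTM1 the higher one; SQSTM1 lies opposite MGAT4B on the other strand. The subunits and inhibitors NFKB1 (adjusted p = 0.513), NFKB2 (0.888), RELB (0.967) and NFKBIA (0.197) were not called. Without control 1 no member of the list was called (adjusted p = 0.152 for CFLAR, 0.226 for IER3 and 0.363 for ICAM1), and without knockdown 2 there were 3 lower and none higher. Interferon response genes were lower in 3 of 53 (5.66%, against 0.965% of all tested genes) and higher in none. IFIT2 was at 0.621, 0.695 and 0.667 CPM in knockdown and 1.78 and 1.35 CPM in control (adjusted p = 0.00550; 0.233 without control 1). EPSTI1 was at 20.2, 19.9 and 19.7 CPM in knockdown and 31.8 and 29.8 CPM in control (adjusted p = 0.0153; 0.252 without control 1, 0.0854 without control 2 and 0.0547 without knockdown 3). CMPK2 was at 13.95, 12.6 and 13.7 CPM in knockdown and 20.6 and 20.2 CPM in control (adjusted p = 0.0155; 0.205 without control 1, 0.116 without control 2 and 0.0622 without knockdown 2).

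Proliferation and biosynthesis genes gave few or no calls in the main fit. None passed of 40 mitosis genes, 43 MYC and ribosome biogenesis genes or 48 cytosolic ribosomal proteins. The same held for 32 cholesterol and fatty acid synthesis genes and 29 BCL2 family and caspase genes. Without the filter on low counts 1 cholesterol and fatty acid gene was lower, and the BCL2 and caspase list held 1 higher and 1 lower. With DESeq2 these lists held 1 lower, and 2 higher and 1 lower. MYC, the growth-promoting transcription factor and a reported GATA3 target in T cell leukaemia, was at 623, 554 and 657 CPM in knockdown and 596 and 536 CPM in control (log2 fold change 0.11, adjusted p = 1). MKI67 was at 697, 468 and 782 CPM in knockdown and 634 and 538 CPM in control (adjusted p = 0.990). RRM2, a ribonucleotide reductase subunit, was the 1 call among 40 genes of DNA replication, at 302, 313 and 304 CPM in knockdown and 388 and 399 CPM in control (adjusted p = 0.0440), and was called in none of the 5 leave-one-out fits (up to 0.299, without control 2). The D-type cyclins moved apart. CCND2 was at 379, 344 and 388 CPM in knockdown, against 518 and 493 CPM in control (log2 fold change -0.45, adjusted p = 0.00302; 0.0992 without control 1). CCND3 was at 214, 230 and 212 CPM in knockdown and 184 and 186 CPM in control (log2 fold change 0.24, adjusted p = 0.0270; 0.410 without control 1, 0.285 without control 2 and 0.202 without knockdown 2). BCL2 (adjusted p = 0.560) and MCL1 (adjusted p = 0.889) were not called. AXIN2, a feedback target of Wnt signalling, was the 1 call among 41 genes of the Notch, Wnt and TGF-β pathways, at 15.5, 16.2 and 16.7 CPM in knockdown and 10.2 and 8.36 CPM in control (log2 fold change 0.80, adjusted p = 0.00301; 0.170 without control 2). NOTCH1 was at 76.1, 47.3 and 79.3 CPM in knockdown and 77.1 and 66.3 CPM in control (adjusted p = 0.997). EPAS1 (HIF-2α) was the 1 call among 36 glycolysis and hypoxia genes, higher at 9.89, 8.96 and 9.46 CPM in knockdown and 6.85 and 5.44 CPM in control (adjusted p = 0.0285), and was called in none of the 5 leave-one-out fits (0.533 without control 2). Without the filter on low counts the glycolysis and hypoxia list held 2 higher and 4 lower, and with DESeq2 1 higher and 1 lower. COX7C, a subunit of cytochrome c oxidase, was the 1 call among 42 nuclear genes of oxidative phosphorylation. It was at 100.4, 133 and 100.1 CPM in knockdown and 61.8 and 71.3 CPM in control (adjusted p = 0.00194; 0.160 without control 1), highest in knockdown 2. The 13 mitochondrial genome genes had no call in the main fit (4 higher without the filter on low counts). Their median log2 fold change was 0.31, and its sign turned without knockdown 2, in which their share of counts was highest: the median was then -0.18, and it was 0.61 without knockdown 3.

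**Figure D4:**
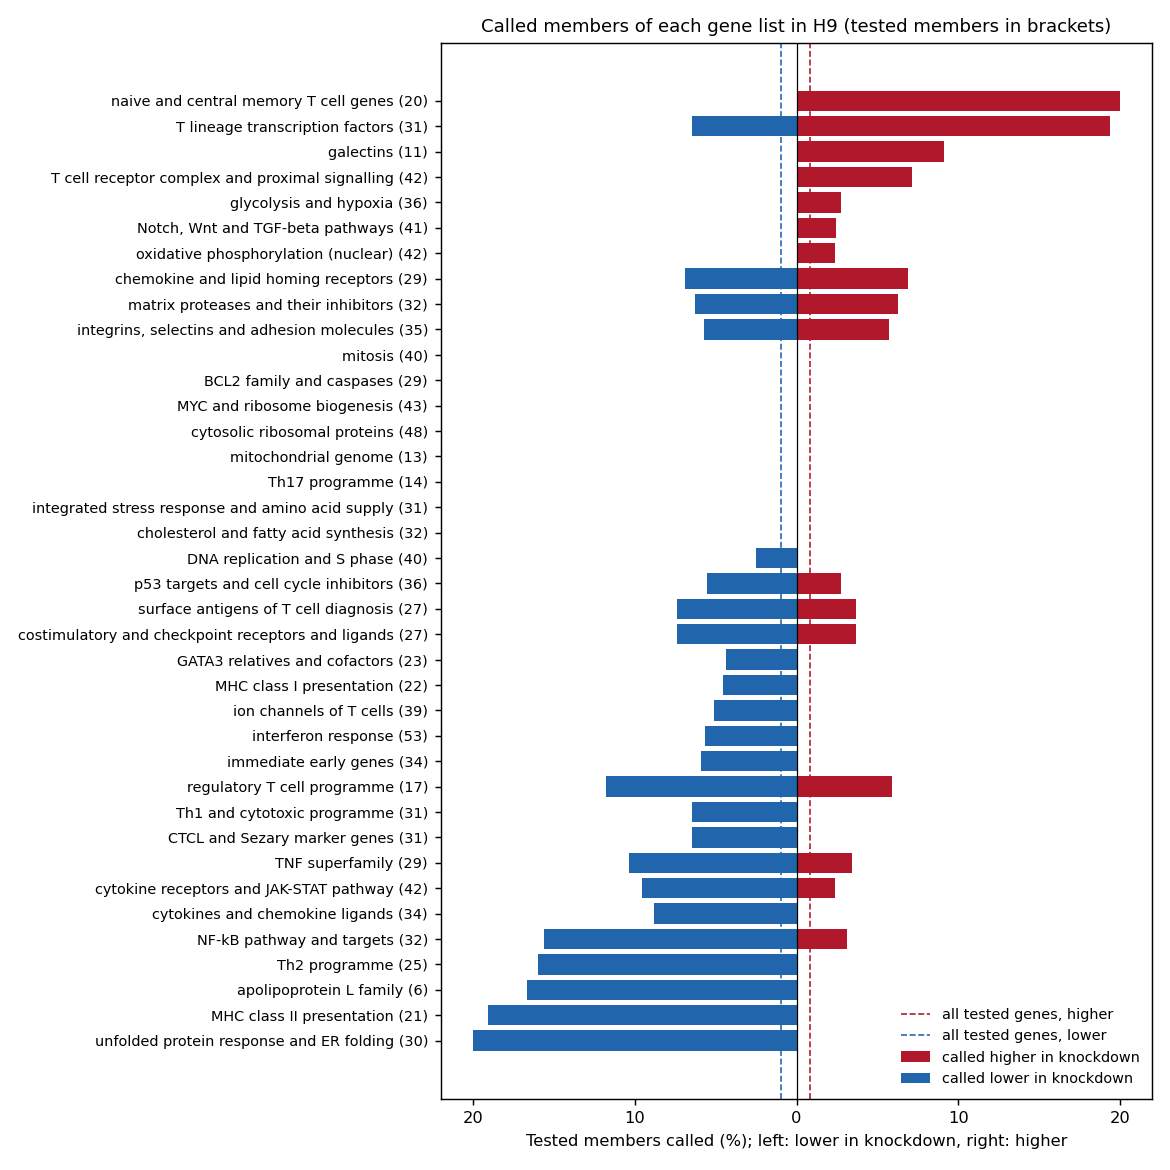
Share of the tested members of each gene list called lower (blue, left) or higher (red, right) in H9 knockdown, in percent, with the number of tested members in brackets and dashed lines at the shares of all tested genes (0.965% lower, 0.852% higher). The naive and central memory and T lineage factor lists have the longest bars to the right, and the unfolded protein response and MHC class II lists the longest to the left.

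By change in level, the 6 largest falls of mean CPM included those of HYOU1, CANX, CCND2 and RRM2, given above. EIF4G2, a translation factor, was at 639, 638 and 647 CPM in knockdown and 839 and 839 CPM in control (adjusted p = 0.00229; 0.0590 without control 1), and FLOT1, a membrane raft protein, was at 178, 220 and 181 CPM in knockdown and 285 and 293 CPM in control (adjusted p = 7.46e-06). The largest rises were those of ACTA2, an actin, LEF1 and RABL6, a RAB-like GTPase. ACTA2 was at 1285, 1589.7 and 1273 CPM in knockdown and 890 and 942 CPM in control (adjusted p = 0.0121), highest in knockdown 2, and was not called without that library (adjusted p = 0.10), without control 1 (0.297) or without control 2 (0.127). RABL6 was at 366, 427 and 368 CPM in knockdown and 228 and 226 CPM in control (log2 fold change 0.77, adjusted p = 7.81e-07), and was called in all 5 leave-one-out fits, as was FLOT1.

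The response of H9 was set beside those of the other lines, each fitted by its own contrast of knockdown and scrambled control in the same model. SUP-T1 was left out because its libraries labelled knockdown had more GATA3 than its controls. Of the 384 genes called in H9, 47 were also called in MyLa, a mycosis fungoides line (12.2% of the H9 calls and 11.8% of the 397 MyLa calls; 1.88% of tested genes were called in MyLa), 41 of them in the same direction. In Mac1, another cutaneous T cell lymphoma line, 102 were called (26.6% of the H9 calls and 6.12% of 1668 Mac1 calls, which were 7.89% of tested genes), 80 in the same direction. In the T cell acute leukaemia lines the shared counts were 133 in CCRF-CEM (91 in the same direction; 8.44% of tested genes called), 188 in MOLT4 (143; 19.2% called) and 61 in THP6 (47; 7.40% called). For 166 of the 384 no other line had a call in the same direction, and 173 were under 1 CPM in both arms of at least 1 of the 5 lines. Neither count was taken over all tested genes, so they do not mark genes particular to H9. In H9 itself, 7417 of the 21138 tested genes had a mean under 1 CPM.

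Besides GATA3, 7 of the 21138 tested genes were called in the same direction in H9 and in all 5 other lines. B4GALT3, a galactosyltransferase of glycan synthesis, fell about as far as GATA3 itself: it was at 16.7, 16.2 and 17.5 CPM in H9 knockdown and 38.9 and 38.9 CPM in control (log2 fold change -1.21, adjusted p = 1.02e-11), and its log2 fold changes elsewhere ran from -0.82 in THP6 to -1.44 in MOLT4. ZDHHC7, a palmitoyltransferase, was at 27.1, 30.1 and 29.1 CPM in H9 knockdown and 47.3 and 44.9 CPM in control (log2 fold change -0.68). The other 5 rose in every line. TULP3, a regulator of ciliary receptor traffic, was at 25.999, 24.7 and 24.6 CPM in H9 knockdown and 13.0 and 12.3 CPM in control (log2 fold change 0.99, and 1.04 to 2.13 in the other lines). MGAT4B, another enzyme of glycan branching, was at 56.2, 64.3 and 52.6 CPM in H9 knockdown and 30.05 and 30.2 CPM in control (log2 fold change 0.94). It lies opposite SQSTM1 on the other strand, and reads of genes that overlap in this way may not have been told apart. RABL6, UBE3C, a ubiquitin ligase, and ZNF687, a zinc finger protein, had H9 log2 fold changes of 0.77, 0.51 and 0.56. Neither the sequence nor the number of the hairpins is in the labels, and whether these 7 transcripts were lowered or raised through GATA3 was not tested.

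**Figure D5:**
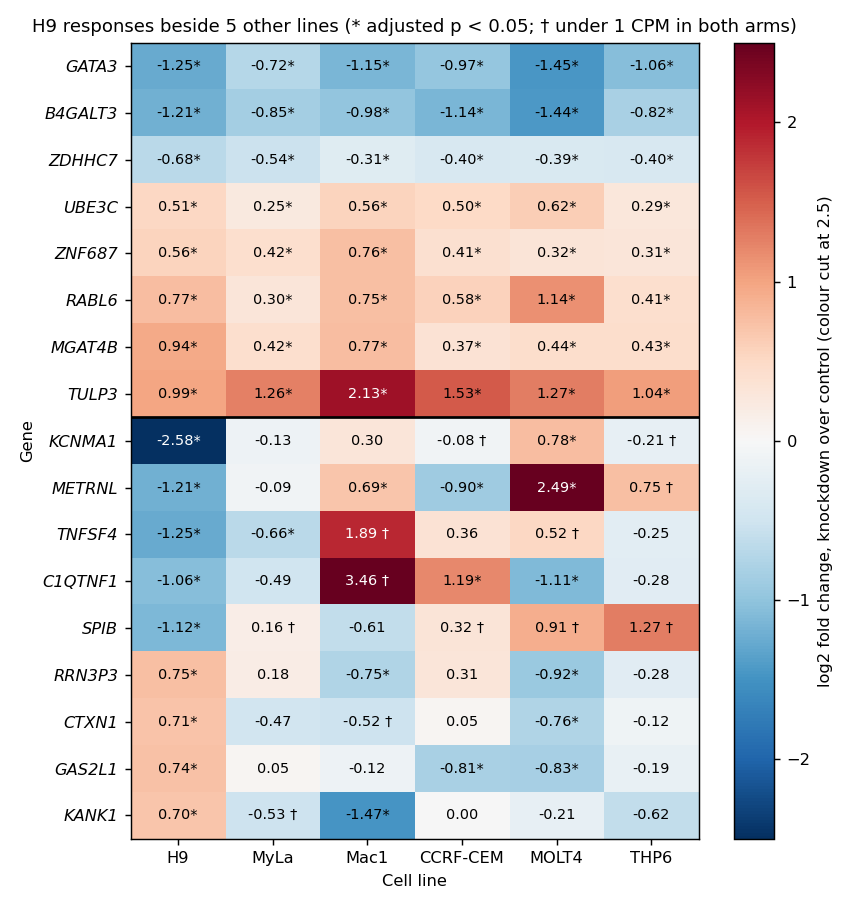
Log2 fold change of knockdown over control (colour and number, cut at 2.5 for colour only) in H9 and 5 other lines (columns) for the 8 genes called in the same direction in all 6 lines (above the line) and 9 genes named for the difference of their H9 response from the mean of the 5 others (below it). An asterisk marks an adjusted p under 0.05 and a dagger a gene under 1 CPM in both arms of that line, as for KCNMA1 in CCRF-CEM and THP6.

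The H9 response differed from that of MyLa for 194 genes (0.918%), from that of Mac1 for 719 (3.4%) and from the mean of the 5 other lines for 247 (1.17%), by interaction contrasts of the same model. Against MyLa, 74 of these were higher in H9 (0.35% of tested genes) and 120 lower (0.568%), against Mac1 183 higher (0.866%) and 536 lower (2.54%), and against the 5 lines 117 higher (0.554%) and 130 lower (0.615%). These contrasts use the H9 libraries again, so the H9 side of each is not a separate measurement. The strongest difference from the 5 lines among genes called in H9 at 5 CPM or more was that of KCNMA1, which fell in H9 (log2 fold change -2.58) and was at 61.8 CPM in knockdown and 67.5 CPM in control in MyLa (log2 fold change -0.13), and at 19.2 CPM in knockdown and 15.5 CPM in control in Mac1 (0.30); it rose in MOLT4 (0.78) and was under 1 CPM in CCRF-CEM and THP6. METRNL, a secreted protein, fell in H9 to 1.99, 2.56 and 2.75 CPM in knockdown, against 6.19 and 5.08 CPM in control, and rose in Mac1 (log2 fold change 0.69) and MOLT4 (2.49); it fell in CCRF-CEM as well (-0.90). C1QTNF1, a secreted C1q-like protein, was at 9.40, 8.78 and 9.75 CPM in H9 knockdown and 20.01 and 18.8 CPM in control (adjusted p = 2.28e-05); it rose in CCRF-CEM (1.19) and fell in MOLT4 (-1.11). SPIB, an ETS factor of B cells and plasmacytoid dendritic cells, was at 23.0, 20.2 and 22.5 CPM in H9 knockdown and 52.3 and 42.6 CPM in control (adjusted p = 0.00150; 0.137 without control 1), and averaged at most 1.501 CPM in each arm of the other 5 lines.

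Several of the genes described above were nearly silent in some of the other lines. CD28 was under 1 CPM in both arms of MyLa, Mac1 and MOLT4, and at 1.16 CPM in knockdown and 2.87 CPM in control in CCRF-CEM and 26.7 CPM in knockdown and 33.6 CPM in control in THP6. LRRN3 exceeded 1 CPM elsewhere in MyLa alone, at 5.17 CPM in knockdown and 4.81 CPM in control. IL1RL1 was under 1 CPM in all 5 other lines. CCR4 was at 138 CPM in knockdown and 185 CPM in control in MyLa, 399 CPM in knockdown and 360 CPM in control in Mac1, 15.8 CPM in knockdown and 70.8 CPM in control in CCRF-CEM and 26.3 CPM in knockdown and 31.2 CPM in control in THP6.

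Promoters of the called genes were searched for the word AGATAA and its variants AGATAG, then TGATAA, then TGATAG, on both strands, since these are common forms of the site that GATA factors bind. The window ran from 250 bases before to 50 bases after the RefSeq start (GRCh38.p14), at the first start the table lists for a gene, and 12458 tested genes had an entry; other starts of a gene were not searched. At least 1 word was found in 22 of 159 promoters of genes called lower (13.8%) and in 23 of 133 of genes called higher (17.3%), against 16.1% of all 12458 promoters and 13.8% of those of 8349 genes of at least 5 CPM. The shares in called genes are thus close to those in promoters at large. Of the 95 genes named by rule, 71 had a promoter. The matches in 5 genes named above are shown as examples, 4 of surface receptors and a ligand that fell and 1 of a transcription regulator that rose. Each line gives 30 bases, 5′ to 3′ on the gene's strand, with the match in capitals; where the capitals end in ATCA, the word lies on the other strand. A match in these letters is a description and not evidence of binding.
CCR4 (chr3:32951551-32951580, plus strand): gttgggtgagggAGATAActcgtgctcaca
TNFSF4 (chr1:173205545-173205574, minus strand): tacaccatgggaTGATAAaacacaggacac
IL10RA (chr11:117989769-117989798, plus strand): ttggagaatgttAGATAAaaatagcccaag
TNFRSF9 (chr1:7940984-7941013, minus strand): tttgaagtgccaTTATCAggcagggacggg
ID2 (chr2:8681945-8681974, plus strand): gcccgctcgtctTGATAGacgtgccacctt
Counted from the start, the first motif base lay at -81 in CCR4, -30 in TNFSF4, -164 in IL10RA, -162 in TNFRSF9 and -99 in ID2. CCR4 held a second match, to TGATAG on the other strand.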

How the data were processed

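Expected counts per gene of polyadenylated RNA were deposited by the authors. Per the submitters' processing notes the tools were cutadapt 2.3, STAR 2.7.8a and RSEM 1.3.3 with GRCh38. The sources used here do not give the annotation release or strand setting. Reads of genes that overlap on opposite strands may therefore not have been told apart. Per the labels' protocols cells grew in RPMI with 10% fetal bovine serum and each library took 50 ng of total RNA. The deposited expected counts were whole, so rounding changed none. Titles gave each library's line and arm.

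All 36 libraries entered 1 model in edgeR 4.0.16 under R 4.3.3, with a mean for each line and arm, TMM scaling, filterByExpr and quasi-likelihood F tests. H9 was tested by its own contrast, with Benjamini-Hochberg adjustment over 21138 genes and a threshold of 0.05; a gene past it is called. The fit shares 1 estimate of spread over lines (common dispersion 0.01178). SE is the absolute log2 fold change divided by the square root of F. Levels are CPM on the TMM-scaled total. Differences between lines are interaction contrasts of the same fit. Coordinates and exon overlaps are from GENCODE 29, promoters from RefSeq (GRCh38.p14). Totals of 23.56 to 28.13 M counts per H9 library set the precision: genes under 1 CPM rest on few reads.

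The members, gene lists and rules were chosen with earlier results of these data known. By rule, the text names GATA3 and called relatives, the 12 highest and 12 lowest fold changes among called genes of at least 5 CPM in the higher group, the 6 largest rises and falls of mean CPM, up to 5 called members per list by adjusted p, and the 5 highest and 5 lowest differences from the 5 other lines. List members that were not called, called members beyond the first 5 of a list, and the genes called in every line were named after their values were seen. Some genes that the rule names are not reported here. Alternatives were DESeq2 1.42.0, DESeq2 size factors in edgeR, a filter of 10 counts in 2 libraries, no filter, limma-voom (limma 3.58.1), replicate number as a block, H9 fitted alone, a minimum absolute log2 fold change of 1, all 6 other lines, and leaving out each H9 library, where a lone control is assumed to vary like the other groups. The fit was tested on simulated data. Python 3.11.15, numpy 2.4.6, pandas 2.3.3, scipy 1.17.1 and matplotlib 3.10.9 were used for tables and figures.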

Additional observations from a re-analysis of the deposited data

Results flagged for a closer look

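The H9 response differed from the mean response of the 5 other lines, by the test of the difference itself, for the 9 named genes given here. The difference, H9 minus the mean of the 5 lines on the log2 scale, was -2.72 for KCNMA1, -1.80 for METRNL, -1.62 for TNFSF4, -1.61 for C1QTNF1 and -1.53 for SPIB, and it was 1.26 for KANK1, 1.12 for GAS2L1, 1.07 for CTXN1 and 1.04 for RRN3P3. KANK1, a cytoskeletal regulator, was at 7.62, 8.64 and 9.25 CPM in H9 knockdown and 5.26 and 5.22 CPM in control, and averaged 0.706 CPM in knockdown and 1.97 CPM in control in Mac1. GAS2L1, which links actin and microtubules, was at 7.74, 8.67 and 8.79 CPM in H9 knockdown and 4.67 and 5.40 CPM in control, and averaged 56.3 CPM in knockdown and 99.0 CPM in control in CCRF-CEM and 19.2 CPM in knockdown and 34.0 CPM in control in MOLT4. CTXN1, a membrane protein, was at 34.7, 42.7 and 33.0 CPM in H9 knockdown and 20.4 and 24.7 CPM in control, and averaged 15.6 CPM in knockdown and 26.4 CPM in control in MOLT4. RRN3P3, a pseudogene whose reads can come from its parent gene, was at 14.5, 12.9 and 11.5 CPM in H9 knockdown and 7.48 and 7.996 CPM in control. The H9 call of KANK1 was lost in 4 of the 5 leave-one-out fits, at adjusted p up to 0.299 without control 1 and 0.270 without control 2, and those of CTXN1 and RRN3P3 without control 1 (0.117 each); GAS2L1 was called in all 5.

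Some of these comparisons set H9 against lines in which the gene was nearly silent: TNFSF4 was under 1 CPM in both arms of Mac1 and MOLT4 and SPIB in MyLa, CCRF-CEM, MOLT4 and THP6. No H9 group had enough libraries for a test of single outlying libraries.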

How the results depend on the processing

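The number of genes called in H9 was 384 and moved to 658 with DESeq2, 649 with limma-voom, 220 with replicate number as a block, 87 when an absolute log2 fold change of at least 1 was required, and 108 to 316 when 1 H9 library was left out. It was 568 without a filter, 394 with the filter of 10 counts in 2 libraries, 387 with DESeq2 size factors and 293 with H9 fitted alone. Genes of the 384 that were called again numbered 363 with DESeq2, 351 with limma-voom, 201 under the block and 204 with H9 alone, all in the same direction. GATA3 stayed called at -1.30 to -1.23 in every setting run. The count of genes that differed from MyLa was 194, with 367 by DESeq2, 293 by limma-voom, 98 under the block and 79 to 160 with a library left out. For Mac1 it was 719, with 1131 by DESeq2, 435 under the block and 392 to 955 with a library left out. For the 5 lines it was 247, with 446 by DESeq2, 518 by limma-voom, 108 under the block, 225 with all 6 lines and 64 to 217 with a library left out. The cause of these moves was not tested. The share of promoters of genes called lower with a motif was 13.8%, and 8.81% with AGATAA and AGATAG alone, where fewer words were searched.

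No named gene changed direction in any setting run, and 27 of 95 kept their call whichever H9 library was left out; of these 27, IL1RL1 (adjusted p = 0.0613) and IL9R (0.0764) were not called under the block, where 2 Th2 genes were called, and ERN1 (0.0724) not with H9 alone. Calls were lost for 64 without control 1, 45 without control 2, 21 without knockdown 1, 25 without knockdown 2, 19 without knockdown 3, 36 under the replicate block and 30 with H9 alone. Replicate numbers do not mark a pairing in the labels, and residuals of same-numbered H9 libraries correlated at 0.0619 and 0.201 (all 17 such correlations in the series ran from -0.109 to 0.201), so libraries were not paired.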

Other observations

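Several genes outside the lists were called in H9 and are given here because their values stood out after they were seen. PAX6, a transcription factor of eye development, was at 1.53, 1.17 and 1.00 CPM in knockdown and 2.74 and 2.48 CPM in control (adjusted p = 0.000593), LHX9 at 1.32, 1.72 and 1.42 CPM in knockdown and 4.33 and 3.72 CPM in control (adjusted p = 0.0164), LHX2 at 4.18, 4.50 and 3.25 CPM in knockdown and 9.34 and 8.18 CPM in control (adjusted p = 0.0474), and ASCL4 at 9.81, 11.2 and 12.3 CPM in knockdown and 23.3 and 25.5 CPM in control (adjusted p = 0.0236). PAX6 was called whichever H9 library was left out, LHX9 in 1 of those 5 fits and LHX2 and ASCL4 in none. Without control 1 the adjusted p was 0.283 for LHX9, 0.463 for LHX2 and 0.205 for ASCL4. APOBEC3G, a restriction factor of retroviruses, was at 101, 109 and 102 CPM in knockdown and 60.6 and 62.7 CPM in control (log2 fold change 0.76, adjusted p = 1.68e-05), APOBEC3F at 29.9, 29.6 and 29.002 CPM in knockdown and 19.0 and 19.5 CPM in control (adjusted p = 0.000455), and ADA, adenosine deaminase, at 162, 188 and 163 CPM in knockdown and 97.8 and 103 CPM in control (adjusted p = 3.18e-07). POU2AF1, a coactivator of lymphoid octamer factors, was at 54.7, 56.8 and 56.6 CPM in knockdown and 32.2 and 30.2 CPM in control (adjusted p = 1.98e-05). APOBEC3G, APOBEC3F, ADA and POU2AF1 were called in all 5 leave-one-out fits.

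HPGDS, the prostaglandin D2 synthase of Th2 cells, did not pass the filter on low counts. It had 0, 1 and 0 counts in the knockdown libraries and 13 and 9 counts in the controls, and without the filter its adjusted p was 0.0377 by edgeR. CD33, a myeloid antigen, was called with 0 counts in every knockdown library, against 0.111 and 0.146 CPM in the controls, and its call was lost in all 5 leave-one-out fits.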
